A study of Homo sapiens with 12 samples.

Results

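The 10 genes described here code for heat shock chaperones and for BAG3, a co-chaperone that works with them. They are HSPA1A, HSPA1B, HSPA8, HSPH1, HSP90AA1, HSPB1, HSPD1, DNAJB1, DNAJB2 and BAG3. They were taken by gene symbol from a table of 34626 genes, where each of the 10 symbols names 1 row. The 12 libraries are poly(A) RNA of MV4-11 and THP-1, established human lines of acute myeloid leukaemia with monocytic features. Each line came in a group labelled shControl and a group labelled shCYTH4, where sh stands for a short hairpin RNA that silences a gene, here CYTH4, or serves as its control. Each of the 4 groups had 3 libraries. CYTH4 codes for a guanine nucleotide exchange factor of ARF GTPases, and the study asked what its silencing does to these cells. How many hairpins were used, and whether the cells were clones or pools, is not given in the sources used here. No source says that the 3 libraries of a group were separate cultures, so all p-values below measure the spread between libraries, which may be technical.

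Heat shock proteins bind unfolded or newly made proteins and help them to fold, or hand them on for degradation. Chaperones of the HSP70 family work in cycles: J-domain proteins such as DNAJB1 bring substrates and stimulate ATP hydrolysis, and exchange factors such as HSPH1 and BAG3 release ADP and let the substrate go. When misfolded proteins build up, heat shock factor 1 binds repeats of the heat shock element, inverted GAA units, in front of many of these genes and raises their transcription. Leukaemia cells of many kinds hold high levels of these chaperones.

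The stretches in front of 6 of the genes are shown because they carry, or in this window lack, the element through which heat shock factors act. They are the 250 bases before an annotated start in RefSeq (GRCh38.p14), read 5′ to 3′ on the gene's strand. Capitals mark each match to paired units, GAANNTTC or TTCNNGAA, with overlapping matches joined; both spellings read the same on the other strand.
HSPA1A promoter, chr6:31815293-31815542, strand +: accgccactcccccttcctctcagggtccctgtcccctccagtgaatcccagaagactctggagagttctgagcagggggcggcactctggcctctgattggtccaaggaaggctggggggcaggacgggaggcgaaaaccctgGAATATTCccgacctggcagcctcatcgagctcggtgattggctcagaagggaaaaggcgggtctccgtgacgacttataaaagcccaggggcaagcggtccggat
HSPA1B promoter, chr6:31827488-31827737, strand +: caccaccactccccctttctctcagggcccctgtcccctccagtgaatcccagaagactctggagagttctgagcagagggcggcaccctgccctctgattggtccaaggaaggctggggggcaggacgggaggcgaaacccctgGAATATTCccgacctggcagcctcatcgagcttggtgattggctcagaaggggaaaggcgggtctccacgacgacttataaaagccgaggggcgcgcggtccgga
HSPA8 promoter, chr11:123062137-123062386, strand -: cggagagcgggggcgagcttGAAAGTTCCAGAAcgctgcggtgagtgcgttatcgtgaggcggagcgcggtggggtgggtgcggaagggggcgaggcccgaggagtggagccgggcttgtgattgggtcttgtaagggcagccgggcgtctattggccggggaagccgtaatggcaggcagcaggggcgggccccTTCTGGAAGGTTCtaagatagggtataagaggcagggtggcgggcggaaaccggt
DNAJB1 promoter, chr19:14518398-14518647, strand -: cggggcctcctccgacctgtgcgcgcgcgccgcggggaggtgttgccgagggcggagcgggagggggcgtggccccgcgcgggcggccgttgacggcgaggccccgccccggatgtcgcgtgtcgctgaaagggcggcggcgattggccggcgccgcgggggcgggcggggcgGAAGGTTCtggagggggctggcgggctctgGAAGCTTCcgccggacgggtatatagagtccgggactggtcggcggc
DNAJB2 promoter, chr2:219279116-219279365, strand +: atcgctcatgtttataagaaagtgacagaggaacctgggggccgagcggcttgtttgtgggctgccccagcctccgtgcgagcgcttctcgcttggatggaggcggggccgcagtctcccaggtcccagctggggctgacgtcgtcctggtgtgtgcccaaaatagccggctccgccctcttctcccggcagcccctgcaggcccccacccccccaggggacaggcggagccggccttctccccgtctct
BAG3 promoter, chr10:119651130-119651379, strand +: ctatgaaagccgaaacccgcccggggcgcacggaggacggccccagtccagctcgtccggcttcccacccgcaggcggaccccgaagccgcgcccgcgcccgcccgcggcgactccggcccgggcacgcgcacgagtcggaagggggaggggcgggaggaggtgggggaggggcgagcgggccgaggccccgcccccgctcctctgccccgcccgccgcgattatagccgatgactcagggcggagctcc
RefSeq lists 14 starts for the 10 genes, and DNAJB1 is shown at the 1 of its starts with a match. At least 1 match stood before a start of 7 of the 10 genes, in 7 of the 14 windows, against 11.6% of the 35114 windows of this length in the table. The genes without a match were HSPH1, DNAJB2 and BAG3. HSPA1A and HSPA1B share the same 8 letters, GAATATTC, starting 106 and 105 bases before the start. A run of 3 units, in which a match of each spelling shares its middle unit with the other, was found for HSPA8, HSP90AA1 and HSPD1, against 0.441% of all windows. A match is a run of letters and not a measured binding site, and a window with none says nothing about the factor.

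The libraries held 71730093 to 77782719 estimated counts, and the 10 genes took 0.224% to 0.729% of them. CYTH4 was at 25.7, 32.2 and 21.0 FPKM (fragments per kilobase of transcript, scaled to the size of the library, a level that can be compared between genes) in the THP-1 controls and at 15.7, 15.0 and 15.7 FPKM in THP-1 shCYTH4 replicates 1, 2 and 3. In MV4-11 it was at 20.9, 16.0 and 18.1 FPKM in the controls and at 15.5, 20.7 and 22.3 FPKM in the libraries labelled shCYTH4, so the label is not matched by a lower CYTH4 level there. THP-1 shCYTH4 replicate 3 stood apart from replicates 1 and 2 in the chaperone genes and over the whole table, but not in CYTH4. Across the 12350 genes tested, which are not independent replicates, Pearson's r of its log2 counts scaled to library size was 0.971 with replicate 1 and 0.970 with replicate 2, against 0.989 between those and 0.9753 to 0.989 within the other groups. Its median distance from the control mean was 0.213 on the scale of log2(FPKM + 1), against 0.188 and 0.195 for replicates 1 and 2. It was not the only such library over the whole table. In MV4-11 shCYTH4 this distance was 0.241 for replicate 1, against 0.135 and 0.146 for replicates 2 and 3. The value of 0.9753 above was the r between replicates 1 and 3 of that group. All 6 monocyte markers (LYZ, CD14, CD33, CSF1R, ITGAM, FCGR1A) were in the table none was at 0 in every library, and 5 in MV4-11 and 6 in THP-1 had group means of at least 1 FPKM. Their summed level was 1701 to 1936 FPKM in the MV4-11 controls and 1184 to 1236 FPKM in the MV4-11 libraries labelled shCYTH4, and 424 to 510 FPKM in the THP-1 controls and 746 to 852 FPKM in THP-1 shCYTH4. Markers of T cells, B cells, erythroid cells, megakaryocytes, epithelium and fibroblasts summed to at most 1.90 FPKM per cell type in any library. These sums cover only 2 of 4 T cell, 2 of 3 B cell, 2 of 3 megakaryocyte and 1 of 3 fibroblast markers, as the rest were not found. Mitochondrially encoded genes took 6.43% to 7.95% of counts in the THP-1 controls and 4.69%, 4.98% and 6.12% in THP-1 shCYTH4 replicates 1, 2 and 3. The part of these shifts in the results below was not tested, and in bulk RNA fewer cells of a type and less RNA per cell cannot be told apart.

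In THP-1 the stress-inducible HSP70 genes were several times higher in shCYTH4 replicates 1 and 2 than in any control, and near the controls in replicate 3. HSPA1A (ENSG00000204389, chromosome 6, 31815543 to 31817946 in the file, forward strand) codes for inducible HSP70. It was at 15.3, 15.7 and 19.3 FPKM in the controls and at 93.0, 121.7 and 18.9 FPKM in shCYTH4 replicates 1, 2 and 3. Replicates 1 and 2 were 5.55 and 7.26 times the control mean, and replicate 3 lay inside the range of the controls. HSPA1B (ENSG00000204388, chromosome 6, 31827738 to 31830254, forward strand) codes for nearly the same protein from a neighbouring gene. Its levels were 17.6, 17.4 and 19.7 FPKM in the controls and 87.8, 111.8 and 22.9 FPKM in shCYTH4, so that here all 3 shCYTH4 libraries lay above the controls. The fitted log2 change was 2.11 for HSPA1A (SE 0.53, edgeR quasi-likelihood, Benjamini-Hochberg adjusted p = 0.0865) and 1.92 for HSPA1B (SE 0.44, edgeR adjusted p = 0.0655), and neither passed the threshold of 0.05.

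Reads of these neighbours are hard to tell apart. Their longest reading frames, both of 1926 bases in GENCODE release 29, differ at 4 bases (99.79% identity), and 67.1% of all stretches of 150 bases in the HSPA1A transcript also occur in that of HSPA1B. The split between them is therefore uncertain. The sum of their levels does not depend on the split, though no source says whether reads that match both genes were all counted, and counted once. Added together they gave 32.9, 33.1 and 39.0 FPKM in the THP-1 controls and 180.8, 233.5 and 41.8 FPKM in shCYTH4. The fitted log2 change of the summed counts was 2.01 (SE 0.49, edgeR adjusted p = 0.0788).

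HSPA8 (ENSG00000109971, chromosome 11, 123057489 to 123063230, reverse strand) codes for HSC70, the HSP70 that cells make without stress. It was at 254.4, 276.6 and 308.7 FPKM in the THP-1 controls and at 712, 783 and 229.5 FPKM in shCYTH4 replicates 1, 2 and 3. Replicates 1 and 2 were above all controls and replicate 3 was below all of them. The fitted log2 change was 0.93 (SE 0.34, 95% interval 0.18 to 1.68, edgeR adjusted p = 0.209). HSPA8 had the highest level of the 10 genes in replicates 1 and 2. In both, its level exceeded the sum of HSPA1A and HSPA1B: 712 against 180.8 FPKM and 783 against 233.5 FPKM.

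**Figure D1:**
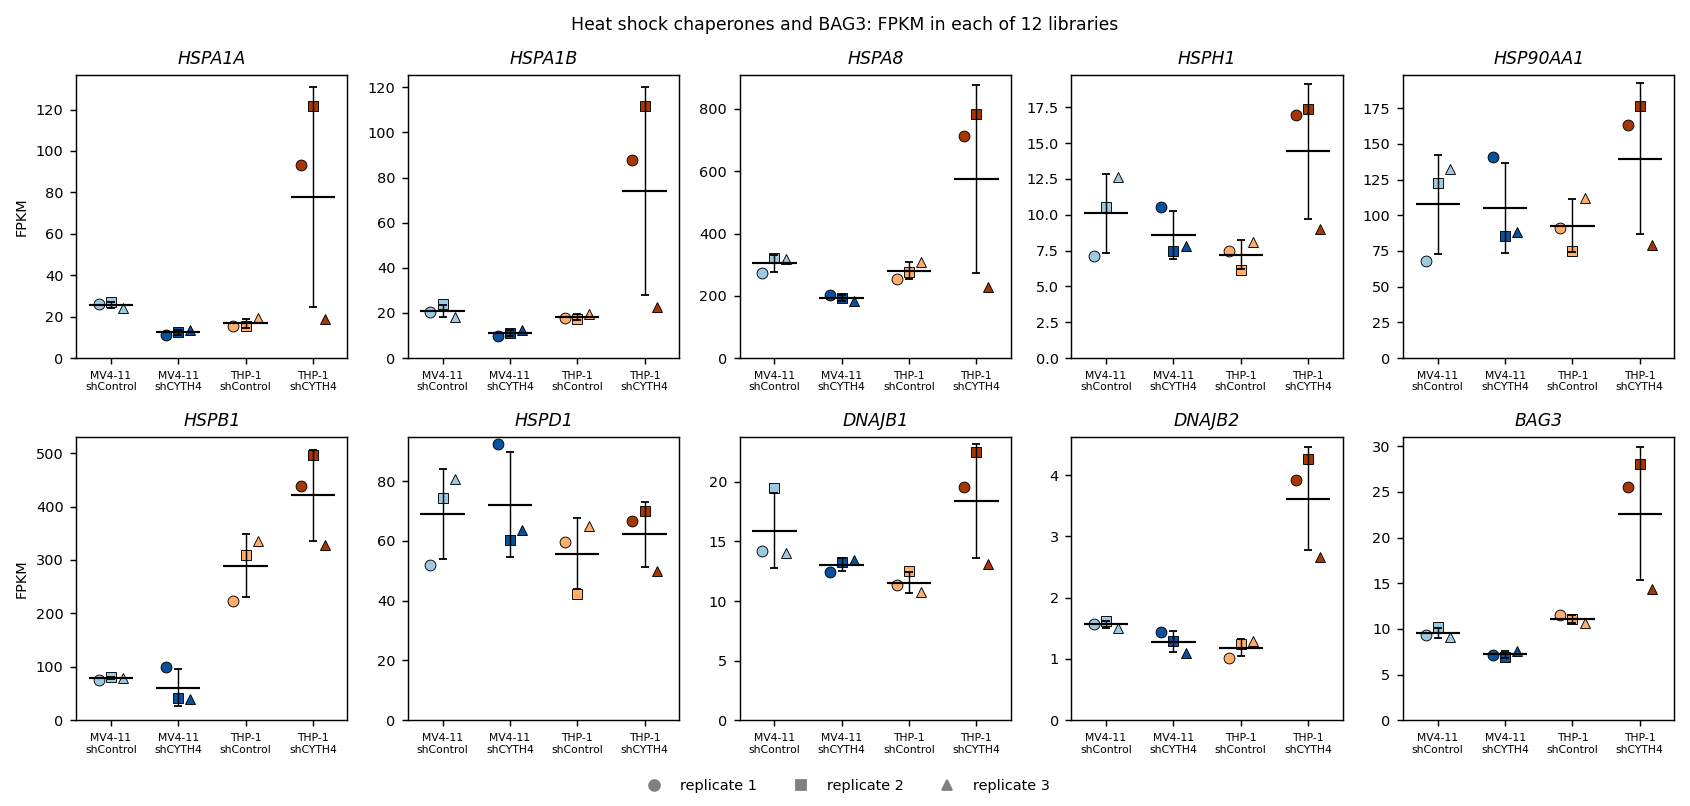
FPKM (linear axes starting at 0) of each of the 10 genes in the 4 groups, with 1 point per library, its shape giving the replicate number; horizontal bars are group means and error bars the SD of 3 libraries. In THP-1 shCYTH4, replicates 1 and 2 lie above every THP-1 control for all 10 genes, while replicate 3 (triangle) does so for 5 of them.

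The co-chaperones that serve HSP70 include the genes that passed the test in THP-1. BAG3 (ENSG00000151929, chromosome 10, 119651380 to 119677819, forward strand) links HSP70 to small heat shock proteins and to selective autophagy. It was at 11.6, 11.1 and 10.6 FPKM in the controls and at 25.5, 28.0 and 14.3 FPKM in shCYTH4 replicates 1, 2 and 3. The controls lay close together, and even the lowest shCYTH4 library was above the highest of them. BAG3 rose by a log2 change of 0.92 (SE 0.20, edgeR adjusted p = 0.0370), a fold of 1.89 (95% interval 1.41 to 2.54). This call was kept when 4 of the 12 libraries were left out in turn and lost for the other 8 (adjusted p = 0.0513 to 0.191), including each of the 3 THP-1 controls and THP-1 shCYTH4 replicates 1 (0.191) and 2 (0.160). It was also lost for MV4-11 control replicate 2 (0.0513) and for MV4-11 shCYTH4 replicates 2 (0.0562) and 3 (0.0539), which enter through the shared estimate of the spread.

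DNAJB2 (ENSG00000135924, chromosome 2, 219279342 to 219286898, forward strand) codes for a J-domain protein with ubiquitin-interacting motifs, best known from neurons, that passes HSP70 clients to the proteasome. It was the lowest of the 10 genes in each library and, in THP-1, the one whose replicate 3 was farthest above the controls. Its levels were 1.02, 1.24 and 1.29 FPKM in the controls and 3.93, 4.25 and 2.67 FPKM in shCYTH4. All 3 shCYTH4 libraries were at least 2.25 times the control mean, replicate 3 included. The log2 change was 1.49 (SE 0.21, edgeR adjusted p = 0.00330), a fold of 2.81 (95% interval 2.07 to 3.81), and the call held without any 1 of the 12 libraries.

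DNAJB1 (ENSG00000132002, chromosome 19, 14514769 to 14560262, reverse strand), the main stress-induced J-domain partner of HSP70 in the cytosol, was at 11.3, 12.5 and 10.8 FPKM in the THP-1 controls and at 19.5, 22.5 and 13.1 FPKM in shCYTH4. The groups did not overlap in FPKM. Scaled as in the edgeR fit, replicate 3 (8143 counts, scaling factor 1.08) lay below control replicate 2 (8196 counts, scaling factor 0.928). The fitted log2 change of 0.56 did not pass (SE 0.19, edgeR adjusted p = 0.147). HSPH1 (ENSG00000120694, chromosome 13, 31134973 to 31162039, reverse strand) codes for HSP105, an exchange factor for HSP70. It was at 7.45, 6.15 and 8.07 FPKM in the controls and at 16.9, 17.3 and 8.996 FPKM in shCYTH4, again without overlap (log2 change 0.89, SE 0.24, edgeR adjusted p = 0.0792).

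The chaperones of other families showed smaller differences in THP-1, and none passed. HSP90AA1 (ENSG00000080824, chromosome 14), the inducible cytosolic HSP90, was at 91.0, 75.1 and 112.4 FPKM in the controls and at 163.1, 176.4 and 79.2 FPKM in shCYTH4 (log2 change 0.49, 95% interval -0.21 to 1.18, edgeR adjusted p = 0.513). HSPB1 (ENSG00000106211, chromosome 7), the small heat shock protein HSP27, was at 224.1, 308.4 and 336.2 FPKM in the controls and at 438.6, 496.3 and 327.3 FPKM in shCYTH4 (log2 change 0.42, 95% interval -0.24 to 1.09, edgeR adjusted p = 0.560). HSPD1 (ENSG00000144381, chromosome 2), the mitochondrial chaperonin HSP60, was at 59.5, 42.3 and 65.1 FPKM in the controls and at 66.7, 70.0 and 49.8 FPKM in shCYTH4 (log2 change 0.06, 95% interval -0.36 to 0.48, edgeR adjusted p = 0.941). For these 3 genes replicate 3 lay within the range of the controls. On the other strand, HSPD1 overlaps HSPE1 (mean 34.1 FPKM), DNAJB1 overlaps TECR (50.4 FPKM) and HSP90AA1 overlaps WDR20 (2.16 FPKM), and use of the strand in counting is not stated, so their levels may hold reads of these neighbours.

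**Figure D2:**
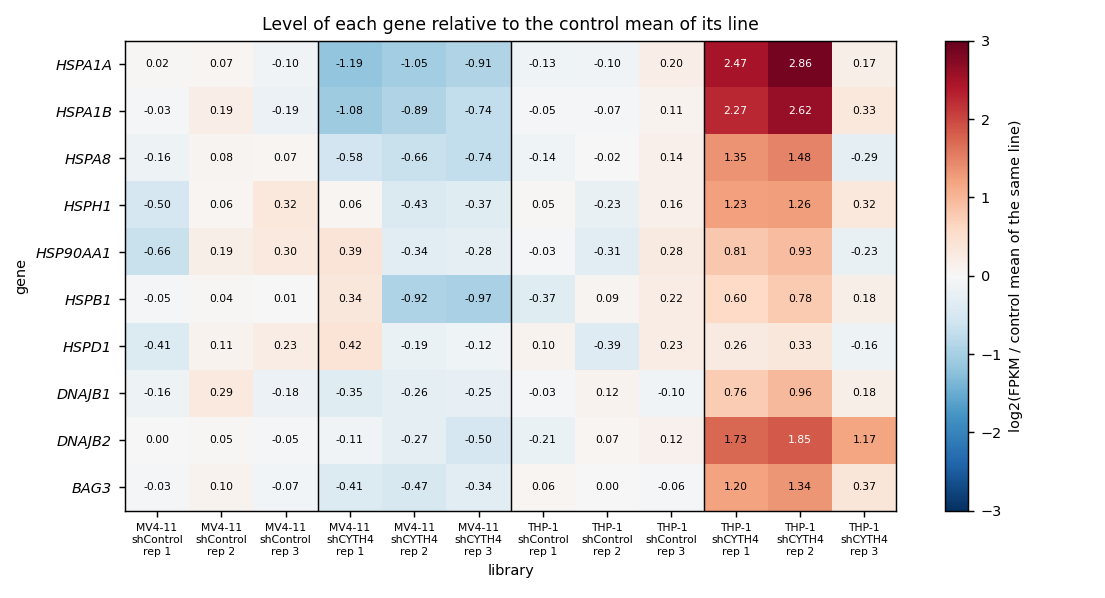
Log2 ratio of the FPKM in each library to the mean of the 3 controls of the same line, for the 10 genes (rows) in the 12 libraries (columns); red is above and blue below the control mean. THP-1 shCYTH4 replicates 1 and 2 are red in every row, up to 2.86 for HSPA1A, whereas replicate 3 is above 1 for DNAJB2 alone (1.17).

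Of the 10 genes, 2 were called higher and 0 lower in THP-1, where edgeR called 0.607% of all 12350 tested genes higher and 1.04% lower. In limma on log2(FPKM + 1) the split over all genes was 331 higher and 145 lower, and on log2(FPKM + 0.1) 159 and 74, against 75 and 129 by edgeR. At an unadjusted p under 0.05, 7 of the 10 genes passed, as did 16.0% of all genes, and DESeq2 called 6 of the 10 and 2.28% of all genes higher. All 10 passed the filter on low values, and all 10 fitted changes were above 0, as were 48.8% of all genes tested, with a median of 0.91 on the log2 scale against -0.01 over all genes tested. In FPKM the libraries did not overlap for 5 of the 10 (HSPA1B, HSPH1, DNAJB1, DNAJB2 and BAG3), all above the controls, as was so for 17.1% of all tested genes. For DNAJB1 this did not hold on the scale of the fit. Per library, the median over the 10 genes of the ratio of FPKM to the control mean was 2.32 in shCYTH4 replicate 1, 2.46 in replicate 2 and 1.13 in replicate 3. In FPKM all 10 genes lay above the highest control in replicates 1 and 2. In replicate 3, 5 did so and HSPA8 lay below the lowest control. Scaled by library total and scaling factor as in the fit, HSPD1 did not lie above all controls in replicate 1. There replicate 1 (37898 counts, factor 1.05) lay below control replicate 3 (40128 counts, factor 0.986).

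Each library was left out in turn, and the fit without THP-1 shCYTH4 replicate 3 is given in full because the chaperone genes themselves were low in that library. Since this choice rests on the levels that are tested, the smaller errors and p-values that follow are a description and no independent support. With the remaining 2 shCYTH4 libraries of that line, edgeR called 7 of the 10 genes higher in THP-1, while 3.21% of all tested genes were called higher. The fitted log2 changes became 2.59 for HSPA1A (SE 0.16), 2.36 for HSPA1B (SE 0.16), 1.69 for DNAJB2 (SE 0.19), 1.33 for HSPA8 (SE 0.12), 1.18 for BAG3 (SE 0.14), 1.16 for HSPH1 (SE 0.19) and 0.77 for DNAJB1 (SE 0.16), with edgeR adjusted p-values from 1e-06 to 0.00941. HSP90AA1 (0.79, edgeR adjusted p = 0.0981), HSPB1 (0.60, edgeR adjusted p = 0.347) and HSPD1 (0.21, edgeR adjusted p = 0.600) were still not called. CYTH4 had a log2 change of -0.87 there (SE 0.21), against -0.89 (SE 0.19) with all libraries.

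In MV4-11 the HSP70 genes had lower levels in all 3 libraries labelled shCYTH4 than in any control, but none passed the test with all 12 libraries. HSPA1A was at 26.2, 27.0 and 24.1 FPKM in the controls and at 11.3, 12.5 and 13.7 FPKM in the libraries labelled shCYTH4, which is 43.7%, 48.3% and 53.3% of the control mean. HSPA1B was at 20.3, 23.8 and 18.3 FPKM in the controls and at 9.85, 11.2 and 12.4 FPKM in the others. HSPA8 was at 273.1, 321.4 and 318.8 FPKM in the controls and at 203.0, 192.6 and 182.0 FPKM in the others. For all 3 of these HSP70 genes the groups were narrow and did not overlap. The fitted log2 changes were -1.12 for HSPA1A (SE 0.51, edgeR adjusted p = 0.371), -0.97 for HSPA1B (SE 0.44, edgeR adjusted p = 0.357) and -0.74 for HSPA8 (SE 0.34, edgeR adjusted p = 0.365). The summed counts of HSPA1A and HSPA1B gave -1.05 (SE 0.47, edgeR adjusted p = 0.362).

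These errors rest on a spread that all 4 groups share, THP-1 shCYTH4 included. The fit of the MV4-11 libraries alone called all 3 genes lower, with log2 changes of -1.11 for HSPA1A (edgeR adjusted p = 0.00271), -0.96 for HSPA1B (edgeR adjusted p = 0.0145) and -0.72 for HSPA8 (edgeR adjusted p = 0.00887), where 0.704% of all genes were called lower. Leaving out THP-1 shCYTH4 replicate 3 did the same, with SEs of 0.15, 0.15 and 0.11 and edgeR adjusted p-values of 5.43e-04, 0.00182 and 0.00197, while 1.44% of all tested genes were then called lower. MV4-11 libraries are the same in these fits, and only the estimate of the spread and the scaling differ. THP-1 shCYTH4 replicate 3 was chosen by low levels of the chaperone genes. The fit without it is therefore a description and no independent support.

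The co-chaperones showed smaller differences, and none passed. BAG3 was at 9.34, 10.2 and 9.09 FPKM in the MV4-11 controls and at 7.20, 6.88 and 7.56 FPKM in the libraries labelled shCYTH4 (log2 change -0.48, SE 0.20, edgeR adjusted p = 0.294). DNAJB1 was at 14.2, 19.5 and 14.0 FPKM and at 12.4, 13.3 and 13.4 FPKM (log2 change -0.36, SE 0.19, edgeR adjusted p = 0.407). DNAJB2 was at 1.57, 1.62 and 1.51 FPKM and at 1.45, 1.30 and 1.11 FPKM (log2 change -0.36, SE 0.20, edgeR adjusted p = 0.440). In each of these genes the libraries labelled shCYTH4 all lay below the controls. HSPH1, HSP90AA1, HSPB1 and HSPD1 overlapped between the groups, with log2 changes of -0.30, -0.11, -0.46 and -0.01.

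HSPB1 differed within the group labelled shCYTH4, at 100.3 FPKM in replicate 1 and 41.9 and 40.3 FPKM in replicates 2 and 3, around controls of 76.3, 81.2 and 79.9 FPKM. Of the 3 libraries labelled shCYTH4, replicate 1 was also the highest for HSP90AA1 (141.1 against 85.3 and 88.6 FPKM), HSPD1 (92.3 against 60.4 and 63.5 FPKM), HSPH1 (10.5 against 7.50 and 7.79 FPKM), HSPA8 and DNAJB2. Without replicate 1, HSPB1 had a log2 change of -1.01 and was called lower (edgeR adjusted p = 0.0426). In that fit 76 of all tested genes were called lower in MV4-11. Replicate 1 was singled out because HSPB1 itself was high in it. The call therefore rests on the levels that are tested and is a description and no independent support. Of the 10 genes, 0 were called in MV4-11 by edgeR with all libraries and 0 by DESeq2, against 1.13% and 3.66% of all tested genes. At an unadjusted p under 0.05, 2 of the 10 (HSPA1B and BAG3) passed, and so did 13.9% of all tested genes. Libraries did not overlap in FPKM for 6 of the 10, all below the controls, as was so for 8.84% of all tested genes. All 10 fitted changes were below 0, whereas 50.1% of all genes tested were above 0, and the median was -0.41 over the 10 genes and 7.5e-04 over all genes tested.

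**Figure D3:**
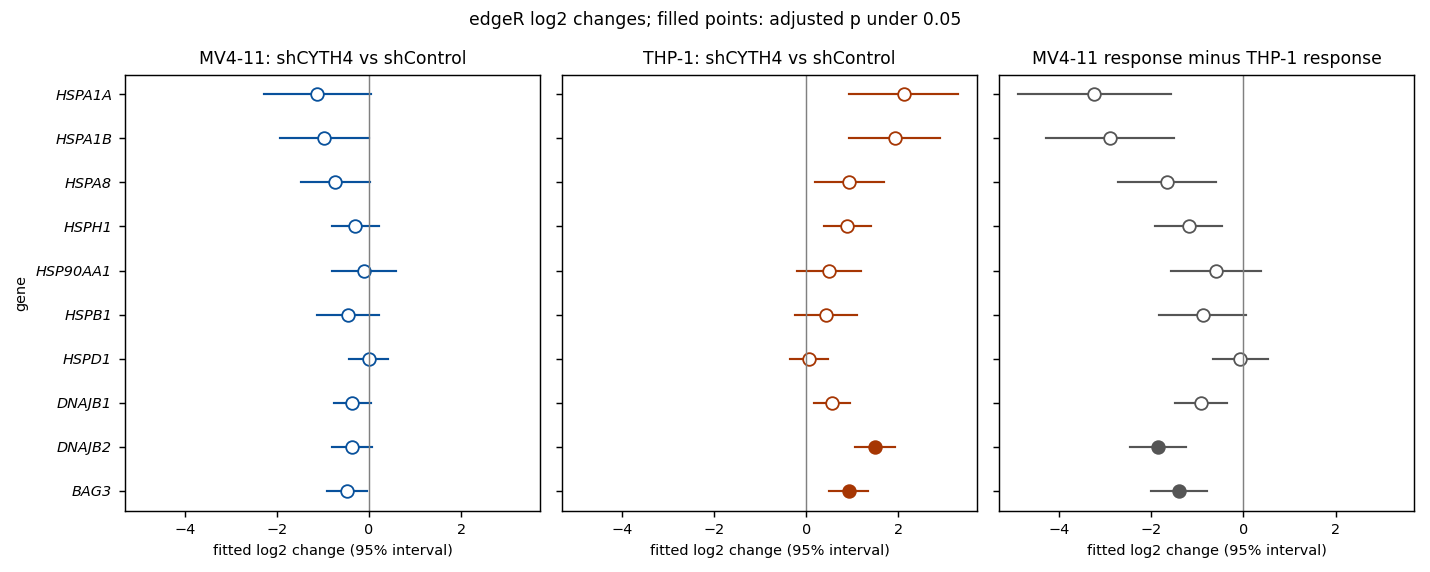
Fitted log2 changes of the 10 genes with 95% intervals (edgeR, all 12 libraries) in MV4-11, in THP-1, and for the MV4-11 response minus the THP-1 response; filled points passed an adjusted p under 0.05. DNAJB2 and BAG3 are filled in THP-1 and in the difference, and HSPA1A and HSPA1B have the widest intervals.

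The responses of the lines differed by test for DNAJB2 and BAG3. This comparison uses the libraries of both comparisons above and is not independent of them. The MV4-11 response minus the THP-1 response was -1.85 for DNAJB2 (SE 0.29, 95% interval -2.47 to -1.24, edgeR adjusted p = 0.00982) and -1.40 for BAG3 (SE 0.28, 95% interval -2.001 to -0.80, edgeR adjusted p = 0.0316) on the log2 scale. These 2 of the 10 genes were called, and 0.453% of all tested genes were called in that direction. The difference was larger for HSPA1A (-3.24, SE 0.74) and HSPA1B (-2.89, SE 0.62) but did not pass (edgeR adjusted p = 0.0903 and 0.0684). HSPA8 (-1.67, SE 0.48), HSPH1 (-1.19, SE 0.34) and DNAJB1 (-0.92, SE 0.27) did not pass either (edgeR adjusted p = 0.120 to 0.150). HSP90AA1 (-0.59, 95% interval -1.57 to 0.39) and HSPB1 (-0.89, 95% interval -1.83 to 0.06) were not called, and HSPD1 differed by -0.07, with a 95% interval of -0.66 to 0.53. The BAG3 call was kept for 3 of the 12 libraries left out in turn and lost for the other 9: MV4-11 control replicate 2 (edgeR adjusted p = 0.0702), MV4-11 shCYTH4 replicates 1, 2 and 3 (0.0532, 0.0790 and 0.0737), THP-1 control replicates 1, 2 and 3 (0.0758, 0.0745 and 0.0879) and THP-1 shCYTH4 replicates 1 and 2 (0.0988 and 0.0880). The DNAJB2 call was kept for all 12. Without THP-1 shCYTH4 replicate 3, 7 of the 10 genes were called in this comparison, each with a lower response in MV4-11. Of all tested genes, 3.49% were called in that direction. HSPA1A was then at -3.70 (SE 0.22) and HSPA8 at -2.05 (SE 0.17). As that library was chosen by the levels that are tested, this too is a description and no independent support.

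In the control libraries HSPB1 and DNAJB1 differed between the lines. HSPB1 was lower in MV4-11, at 79.1 ± 2.51 FPKM, than in THP-1, at 289.5 ± 58.4 FPKM (SD, n = 3 each), a log2 difference of -1.86 (SE 0.32, edgeR adjusted p = 3.36e-04). DNAJB1 was higher in MV4-11, at 15.9 ± 3.12 against 11.5 ± 0.877 FPKM (SD, n = 3 each; log2 difference 0.48, SE 0.19, edgeR adjusted p = 0.0432). The DNAJB1 call was kept under 10 of 22 alternatives. It was lost under upper quartile scaling (edgeR adjusted p = 0.0644), with the filter of 5 FPKM (edgeR, 0.0756), under quantile normalization (limma, 0.0649), in limma on log2(FPKM + 1) (0.0562) and on log2(FPKM + 0.1) (0.0743), and without each of 7 libraries: MV4-11 control replicates 1 (0.0551) and 2 (0.215), MV4-11 shCYTH4 replicates 2 (0.0558) and 3 (0.0544), THP-1 control replicates 1 (0.123) and 3 (0.129) and THP-1 shCYTH4 replicate 1 (0.0529), by edgeR adjusted p. Without MV4-11 control replicate 2 the DNAJB1 difference was 0.32. With 2 of 10 genes called, the share was below that of all tested genes, of which 51.4% were called between the lines. Without THP-1 shCYTH4 replicate 3, which is in neither control group, HSPA1A (log2 difference 0.64, SE 0.14, edgeR adjusted p = 0.00160), HSPH1 (0.49) and DNAJB2 (0.42) were called higher in MV4-11 as well, and 54.3% of all tested genes were called. That library was chosen by the levels of the 10 genes, so these calls are a description only.

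In the MV4-11 controls HSPA8 was highest (304.4 ± 27.2 FPKM), followed by HSP90AA1 (107.7 ± 34.8), HSPB1 (79.1 ± 2.51) and HSPD1 (69.0 ± 15.0), whose ranges of mean ± SD overlapped. HSPA1A (25.8 ± 1.49), HSPA1B (20.8 ± 2.78), DNAJB1 (15.9 ± 3.12), HSPH1 (10.1 ± 2.76), BAG3 (9.54 ± 0.585) and DNAJB2 (1.57 ± 0.0533) followed (SD, n = 3). In the THP-1 controls HSPB1 (289.5 ± 58.4 FPKM) and HSPA8 (279.9 ± 27.3 FPKM) did not differ beyond their spread, and BAG3 (11.1 ± 0.460 FPKM) stood beside DNAJB1 (11.5 ± 0.877 FPKM) and above HSPH1 (7.22 ± 0.983 FPKM).

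Beyond the 10 genes, 9 lists held 114 other chaperone, co-chaperone and protein degradation genes, of which 112 were found and 103 passed the filter on low values. HSPA4L, an HSP110 relative of HSPH1, and WIPI1, a gene of autophagosome formation, passed it through the 3 shCYTH4 libraries of 1 line alone, so that a difference was needed for them to be tested. They are left out of the counts that follow. HSPA4L was at 0.591, 0.439 and 0.540 FPKM in the THP-1 controls and at 1.45, 1.46 and 1.04 FPKM in THP-1 shCYTH4. Of the other 101 genes, 2 were called higher and 0 lower in THP-1, where 0.607% of all tested genes were called higher. In that comparison 10 of the 101 had an unadjusted edgeR p under 0.05, a share below the 16.0% of all genes.

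DNAJA4, a J-domain protein, was at 6.01, 4.99 and 6.71 FPKM in the THP-1 controls and rose to 14.7, 17.6 and 7.19 FPKM in shCYTH4 (log2 change 1.05, SE 0.25, edgeR adjusted p = 0.0474). GABARAPL1, an ATG8 protein of the autophagosome membrane, was at 0.858, 0.828 and 0.563 FPKM in the controls and rose to 2.62, 2.05 and 1.27 FPKM (log2 change 1.28, SE 0.29, edgeR adjusted p = 0.0426). For both genes the groups did not overlap in FPKM, and replicate 3 was the lowest of the shCYTH4 libraries. Scaled by library total and scaling factor as in the edgeR fit, DNAJA4 did overlap. There replicate 3 (3601 counts, factor 1.08) lay below control replicate 3 (3577 counts, factor 0.986). The DNAJA4 call was kept for 2 of the 12 libraries left out in turn, MV4-11 shCYTH4 replicate 1 and THP-1 shCYTH4 replicate 3. The GABARAPL1 call was kept for 4, namely those 2 and MV4-11 control replicates 1 and 2. With no filter on low values, GABARAPL1 was called higher and HSPB8, a small heat shock protein that binds BAG3, was called lower, while DNAJA4 was not called. In MV4-11, 0 of the 101 genes were called by edgeR with all libraries and 1 by DESeq2. At an unadjusted p under 0.05, 7 passed there, a share below the 13.9% of all genes. For the difference between the lines, 0 were called by edgeR and 2 by DESeq2, which called 3.64% of all genes. At an unadjusted p under 0.05, 14 of the 101 passed, and 14.2% of all genes did.

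By list, HSP90 and its co-chaperones had a median log2 change of 0.31 in THP-1 and -0.18 in MV4-11, with 0 of 13 tested members called in either line. Other J-domain proteins had a median of 0.19 in THP-1 (1 of 15 called) and 0.02 in MV4-11 (0 called). The BAG3-linked autophagy and ubiquitin genes had a median of 0.21 in THP-1 (1 of 7 called) and -0.06 in MV4-11 (0 called), and other HSP70 and HSP110 proteins 0.03 and 0.18 (0 of 4 called in either line). Proteasome subunits (31 tested) were at 0.08 and -0.08, chaperonins (15) at 0.02 and -0.04, HSP70 exchange and helper factors (10) at 0.11 and -0.19, heat shock factors (4) at 0.08 and 0.09, and other small heat shock proteins (2) at -0.29 and 0.26, each with 0 called in either line. All genes tested had a median of -0.01 in THP-1 and 7.5e-04 in MV4-11. HSF1, which codes for the main factor of the heat shock response, was at 22.0, 27.3 and 27.0 FPKM in the THP-1 controls and at 32.4, 32.8 and 25.3 FPKM in shCYTH4 (log2 change 0.13, SE 0.15, edgeR adjusted p = 0.750). HSF2, a related factor, was at 10.2, 6.36 and 8.68 FPKM and at 8.45, 8.84 and 10.3 FPKM (log2 change 0.03, SE 0.19, edgeR adjusted p = 0.974).

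The fit without THP-1 shCYTH4 replicate 3 is again a description and no independent support, as low chaperone levels singled out that library. In that fit, 10 of the 101 genes were called higher in THP-1, where 3.21% of all tested genes were. Beside DNAJA4 and GABARAPL1 these were the J-domain genes DNAJA1 (log2 change 0.76, SE 0.20) and DNAJB6 (0.89, SE 0.12), the HSP90 co-chaperones AHSA1 (0.71, SE 0.13), STIP1 (0.60, SE 0.12), FKBP4 (1.24, SE 0.16) and CHORDC1 (0.88, SE 0.24), the autophagy receptor SQSTM1 (0.60, SE 0.14) and the proteasome subunit PSMD11 (0.50, SE 0.13), with edgeR adjusted p-values from 5.51e-04 to 0.0425 for these 8. With all libraries, FKBP4 had a log2 change of 0.83 (edgeR adjusted p = 0.318), DNAJB6 of 0.67 (edgeR adjusted p = 0.0544) and SQSTM1 of 0.41 (edgeR adjusted p = 0.238). In MV4-11, leaving out that THP-1 library gave 1 call, HSPA13, an HSP70 relative in the endoplasmic reticulum, which was higher (log2 change 0.89, SE 0.18, edgeR adjusted p = 0.0145), where 1.78% of all tested genes were called higher.

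**Figure D4:**
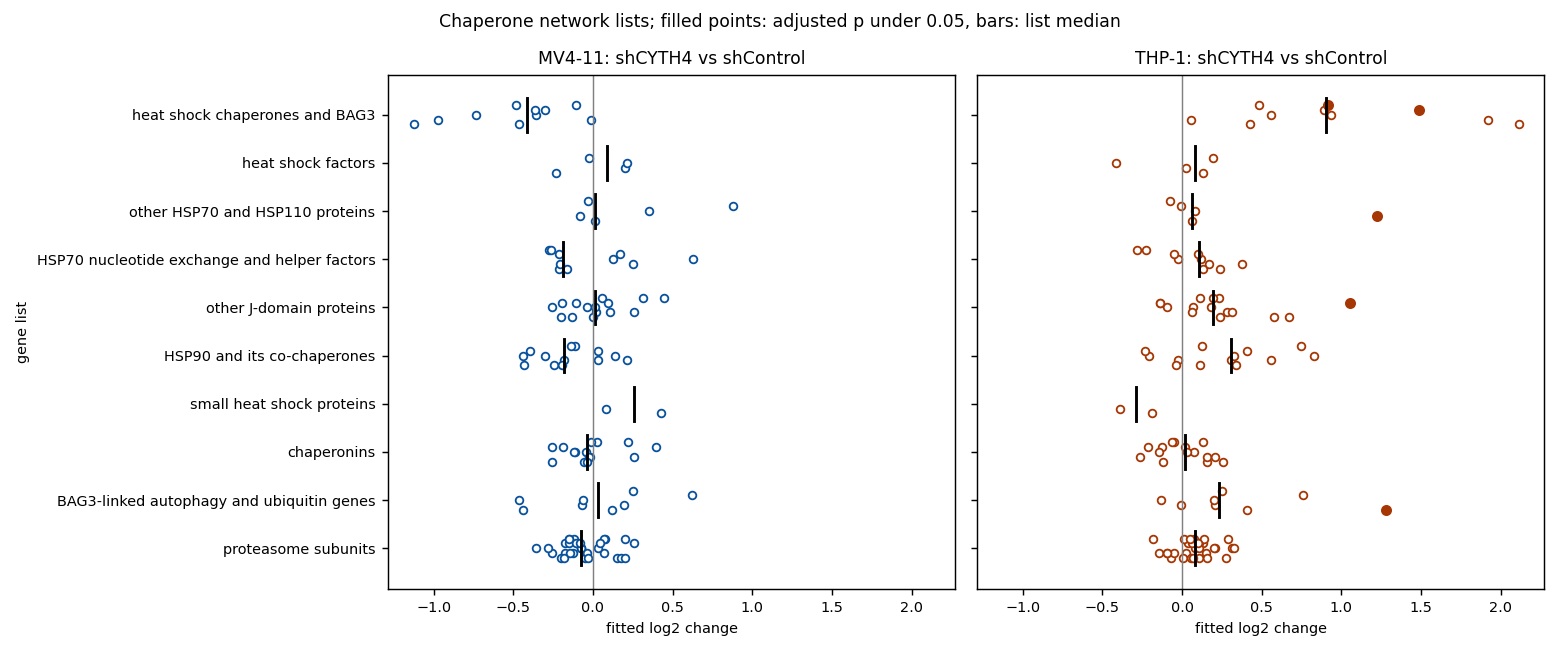
Fitted log2 changes (edgeR, all 12 libraries) of the 10 genes and of the tested members of 9 other lists in MV4-11 and THP-1; filled points passed an adjusted p under 0.05 and black bars are list medians over all tested members, HSPA4L (1.23 in THP-1) and WIPI1 (0.62 in MV4-11) included. The 10 genes lie at 0.06 to 2.11 in THP-1 and at -1.12 to -0.01 in MV4-11, while the medians of the other lists stay between -0.29 and 0.31.

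The 10 genes did not follow a common profile equally well. Values were log2(FPKM + 1), centred on the control mean of each line. Over the 12 libraries, Pearson's r of each gene with the mean of the other 9 was 0.92 to 0.97 for HSPA1A, HSPA1B, HSPA8, HSPH1, DNAJB1, DNAJB2 and BAG3, 0.76 for HSP90AA1, 0.77 for HSPB1 and 0.46 for HSPD1. Among 6143 other genes with a mean of at least 5 FPKM, those with the highest r to the mean of the 10 were CRELD2 (0.98), TNIP2 (0.98), EMC8 (0.98), RAB5IF (0.98) and REXO4 (0.98). CRELD2 was at 7.47 FPKM on average in the THP-1 controls and at 16.2, 17.97 and 8.67 FPKM in shCYTH4, and RAB5IF at 50.9 and at 107.9, 119.9 and 55.3 FPKM. Neither was called (edgeR adjusted p = 0.0852 and 0.132). For DNAJB2 alone the nearest genes were SLC25A15 (0.98), FOXD1 (0.98), CYB5R1 (0.97), CDIPT (0.97) and TNIP2 (0.97). Within the THP-1 libraries their r was 0.96 to 0.99, and within MV4-11 it was 0.85, 0.50, 0.68, 0.54 and 0.86 in the same order. FOXD1 averaged 0.0879 and 0.0406 FPKM in the MV4-11 controls and libraries labelled shCYTH4, so it met the minimum of 5 FPKM through THP-1 alone. The libraries are shared between all of these genes and the points fall mainly into THP-1 shCYTH4 replicates 1 and 2 against the rest, so that these values are a description only.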

How the data were processed

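RNA of 12 libraries (MV4-11 and THP-1, shControl and shCYTH4, 3 per group) was poly(A)-selected and sequenced as read pairs, per the labels' protocols. The authors deposited 1 table with an FPKM and an estimated count for each gene and library, per the file headers. The submitters' processing notes name fastp, StringTie and edgeR. For the aligner, genome build, annotation, FPKM denominator and use of strand, the status is: not given in the sources used here. Columns marked SC and Sh were read as shControl and shCYTH4, and 0 sample columns were left unassigned. Low deposited counts gather at multiples of 4, so the scale of a count is not known.

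The 12350 of 34626 genes with at least 1 FPKM in at least 3 libraries were tested on the counts with edgeR 4.0.16 (TMM scaling, robust quasi-likelihood fit in R 4.3.3, 4 group means, 8 residual degrees of freedom). The Benjamini-Hochberg adjustment covered all genes tested, and genes were called at an adjusted p under 0.05. An exact permutation test of 3 against 3 libraries cannot go below p = 0.1, so none is given for single genes. Intervals are 95% intervals of the fit. The code was tested on simulated data. Alternatives were DESeq2 1.42.0, limma 3.58.1 on log2(FPKM + 1) and log2(FPKM + 0.1), other scalings, filters and thresholds, counts divided by 4, each line alone, the replicate number as a block, and each library left out. Promoter windows came from RefSeq (GRCh38.p14) and transcripts from GENCODE, matched by symbol for all 10 genes; the build of the deposited coordinates is not stated.

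The genes, lists and tests were chosen with earlier results of these data known. Named are the 10 genes, every called gene of the 9 lists (up to 5 per list), HSF1, HSF2, CYTH4 and the 5 genes nearest in profile. WIPI1, HSPB8 and the genes named from the fit without THP-1 shCYTH4 replicate 3 were chosen after their values were seen.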

Additional observations from a re-analysis of the deposited data

Results flagged for a closer look

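The response to shCYTH4 differed between the lines by an interaction test for DNAJB2 and BAG3. On the log2 scale, the MV4-11 response minus the THP-1 response was -1.85 for DNAJB2 (edgeR adjusted p = 0.00982) and -1.40 for BAG3 (edgeR adjusted p = 0.0316). In THP-1 all 3 shCYTH4 libraries lay above the 3 controls for both genes, and in MV4-11 all 3 libraries labelled shCYTH4 lay below them. CYTH4 itself was lower in THP-1 shCYTH4 (log2 change -0.89, edgeR adjusted p = 0.0338) and not in MV4-11 (0.01, edgeR adjusted p = 0.988), with a difference between the lines of 0.90 that was not called (edgeR adjusted p = 0.126). Groups of 3 libraries are too small for the check on single outlying values, so THP-1 shCYTH4 replicate 3 is described by its values only.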

How the results depend on the processing

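DNAJB2 kept its THP-1 call under all 22 alternatives that gave a value (log2 change 1.07 to 1.69) and its difference between the lines under all 21 (-2.04 to -1.24); the filter of 5 FPKM left it untested. BAG3 kept its THP-1 call under 13 of 23 (0.74 to 1.18) and the difference under 10 of 22 (-1.65 to -1.20). HSPB1 was lower in MV4-11 controls under all 22, and DNAJB1 higher there under 10 of 22. Of 904 values of the 10 genes under alternatives, 813 kept direction and side of the threshold, 34 lost and 33 gained the call, and 24 changed sign (21 of HSPD1, 3 of HSP90AA1, none called). HSPD1 in MV4-11 was at 0.0521 with upper quartile scaling, 0.0392 with quantile normalization, 0.0234 with the filter of 5 FPKM, 0.0595 and 0.0603 with limma at pseudocounts of 1 and 0.1, and 0.0041 with each line alone. Its difference between the lines was 0.0040 with upper quartile scaling. With libraries left out, HSPD1 ranged from -0.213 to 0.110 in MV4-11, from -0.0818 to 0.213 in THP-1 and from -0.269 to 0.0723 in the difference, and HSP90AA1 from -0.361 to 0.0640 in MV4-11. The cause was not tested.

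Counts of calls moved as follows, in the order MV4-11, THP-1, difference between the lines, and lines in control libraries. Over all genes (139, 204, 107 and 6347 calls), DESeq2 gave 451, 611 and 441 for the first 3, the filter of 5 FPKM 80, 133, 30 and 3655, a threshold of 0.01 46, 15 and 14, and a threshold of 0.1 321, 510 and 247. Limma on log2(FPKM + 1) gave 476 in THP-1, each line alone 78 in THP-1, and the difference had 60 calls with quantile normalization and 162 with no filter. For the 10 genes (0, 2, 2 and 2 calls), DESeq2 gave 6 in THP-1 and 7 for the difference, a threshold of 0.1 gave 5, 4 and 4 after MV4-11, and each line alone 3 in MV4-11 and 1 in THP-1. A threshold of 0.01 gave 1 in each of the last 3. The difference had 1 call with quantile normalization, the filter of 5 FPKM or limma at 0.1, and the control comparison 1 with upper quartile scaling, that filter or limma at either pseudocount. With quantile normalization the 2 calls of the control comparison were HSPB1 and DNAJB2, and the split over all genes in MV4-11 was 36 higher and 72 lower, against 65 and 74. For the other 103 genes, HSPA4L and WIPI1 included (0, 3, 0 and 42 calls), DESeq2 gave 1, 5 and 3, and a threshold of 0.01 gave 0 in THP-1 and 24 between the lines. Each line alone gave 1 in THP-1, and no filter, counts divided by 4 and a threshold of 0.1 gave 1 for the difference. Fits of each line alone give no value for the last 2 comparisons.

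With each library left out, the 10 genes had 0 to 3, 1 to 7, 1 to 7 and 1 to 5 calls, the other 103 genes 0 to 1, 0 to 11, 0 to 12 and 32 to 51, and all genes 74 to 398, 15 to 835, 32 to 913 and 5398 to 6709. The highest counts came without THP-1 shCYTH4 replicate 3.

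Libraries with the same number did not deviate together (r = -0.17, -0.12 and -0.03 in MV4-11 and -0.21, 0.09 and -0.05 in THP-1). Within a line, pairs with different numbers ranged from -0.217 to 0.289. With 3 libraries per group these values cannot show whether libraries shared a culture or batch. With the replicate number as a block, 1 of the 10 genes (DNAJB2) was called in THP-1 and 1 in the difference, 0 of the other 103 genes in THP-1, and 23 and 47 of all genes. BAG3 had a log2 change of 0.86 (edgeR adjusted p = 0.120) in THP-1 under the block.

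Group sizes of 3, CYTH4 levels that go against the MV4-11 label, and near-identical HSPA1A and HSPA1B set the limits. So do THP-1 shCYTH4 replicate 3 and MV4-11 shCYTH4 replicate 1, each unlike the other 2 libraries of its group. DNAJB2 has the lowest level of the 10 genes and so the fewest fragments per value.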
